A study of Mus musculus with 2 samples.

Results

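The genes of protein entry, sugar addition, folding, disposal and stress sensing in the endoplasmic reticulum (ER) were examined in single-cell RNA-Seq (scRNA-Seq) of mouse hepatocytes, the secretory and metabolic cells of the liver. The list named 39 genes by symbol, and 39 of these were found among the 27998 genes in the files. By step, 7 genes belong to translocation, 4 to N-glycosylation, 15 to folding, 7 to degradation and 6 to stress sensing. The study profiled C57BL/6 mice (C57BL/6J in its methods), 10 to 12 weeks old by the labels, on a normal diet. Hepatocytes were freed by collagenase perfusion in 2 steps, and 1 droplet library was made from undamaged liver (0 h) and 1 from liver 48 h after partial hepatectomy (PHx), in which surgery takes out the larger share of the organ and the remnant regrows. Each library held the cells of a single preparation of hepatocytes from a male mouse, and the label of the surgical protocol is the same for both. With 1 library per time point no test between time points was possible, and time, animal and library cannot be told apart.

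Proteins bound for secretion enter the ER through the Sec61 channel, receive N-linked sugars from the oligosaccharyltransferase, and are then folded by chaperones and by disulfide isomerases. Proteins that fail to fold are drawn back to the cytosol and degraded. The sensors IRE1, PERK and ATF6 watch the load of unfolded protein. IRE1 splices the mRNA of Xbp1, PERK favours translation of Atf4, and ATF6 is cut to a transcription factor. ATF6 and XBP1 act on chaperone and degradation genes through short promoter elements. Hepatocytes release albumin, apolipoproteins and clotting factors in large amounts and carry extensive rough ER.

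Barcodes, which stand for droplets, were compared in sets of like mitochondrial share. The set with over 30% mitochondrial UMIs (unique molecular identifiers, 1 per captured transcript molecule) held 3870 of 59202 barcodes (6.54%) at 0 h and 765 of 1586 (48.2%) at 48 h. The set with under 2% held 52587 (88.8%) and 522 (32.9%). The median barcode of the over 30% set had 1213.5 non-mitochondrial UMIs at 0 h and 4411 at 48 h, and that of the under 2% set had 1413 and 5271.5. The 10 hepatocyte markers had UMIs in every set, and their summed level ran from 65255 to 113441 counts per 1000000 non-mitochondrial UMIs. The files of the 2 libraries shared 148 barcode sequences. No level given here depends on naming cell types, and no doublets were removed. The paper kept fewer barcodes after its filters, and at 0 h only a small part of the 59202. Whether a barcode held a cell or only free RNA was not tested, so the levels are not sure to be those of whole hepatocytes.

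The level of a gene is given in counts per 1000000 non-mitochondrial UMIs of the set (CPM), with an exact 95% Poisson interval in parentheses. The ratio is log2 of the 48 h level over the 0 h level after adding 1 CPM to both, so a negative ratio means a lower level at 48 h. The interval beside a ratio is an exact binomial one for the ratio without that addition. All intervals cover counting error only, not the spread between mice. A gene is counted as 2-fold higher or lower when its ratio is at least 1 in size.

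The promoters were searched for the elements that ATF6 and XBP1 use, to see which genes of the list share a known control sequence. RefSeq promoters (GRCm38.p6, from 250 bases before to 50 after the start) were at hand for 33 of the 39 genes and not for Atf6, Derl1, Hyou1, Manf, Sec61a1 and Ssr2. The ER stress response element (ERSE) is CCAAT and CCACG with 9 bases between them, and it was searched on both strands. It was present in 9 of the 33 (27.3%), against 37 of the 27025 genes of the table (0.137%). Of the 13 folding genes with a promoter 7 held it, and the other two holders, Derl3 and Syvn1, act in degradation. The element is known from chaperone and degradation genes, so an excess in this list was foreseeable and is not a result of these data. The sites ended 25 to 193 bases before the start. They are printed with 5 bases on each side, 5′ to 3′ on the strand of the gene, with the 2 conserved parts in capitals (the order is inverted where the element lies on the opposite strand):
Hspa5: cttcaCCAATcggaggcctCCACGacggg
Hsp90b1, distal: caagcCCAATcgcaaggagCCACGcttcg
Hsp90b1, proximal: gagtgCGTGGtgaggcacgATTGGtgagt
Calr: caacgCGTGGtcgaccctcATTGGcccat
Canx: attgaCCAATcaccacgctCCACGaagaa
Pdia6: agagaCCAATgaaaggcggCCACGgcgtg
Dnajc3: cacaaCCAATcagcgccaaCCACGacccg
Creld2: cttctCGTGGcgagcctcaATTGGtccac
Syvn1: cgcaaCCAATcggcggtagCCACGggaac
Derl3: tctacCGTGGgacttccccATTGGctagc

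The Hspa5 site lies at chr2:34772020-34772048 on the plus strand, and the Hsp90b1 sites lie at chr10:86705633-86705661 and chr10:86705528-86705556 on the minus strand. The Calr site is at chr8:84847070-84847098 and the Canx site at chr11:50325795-50325823, both on the minus strand. On the plus strand, the Pdia6 site is at chr12:17266486-17266514, the Dnajc3 site at chr14:118937822-118937850, the Creld2 site at chr15:88819515-88819543, the Syvn1 site at chr19:6046527-6046555 and the Derl3 site at chr10:75893237-75893265. All of them lie upstream of the start used in the RefSeq promoters. By GENCODE M21 the Hspa5 gene starts earlier, at chr2:34771970, so its site lies inside the annotated gene. The related ERSE-II (ATTGG and CCACG with 1 base between) was in the promoters of Dnajb11 and Herpud1, against 12 of all 27025 genes (0.0444%). The element TGACGTGG, bound by XBP1, was in 0 of the 33, against 0.714% of all genes. The element TTGCATCA, bound by ATF4 dimers, was in that of Herpud1, against 1.03% of all. A match is a run of letters and was not tested as a binding site, and an element written with other letters would be missed.

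Over the whole list, the 15 folding genes and 6 of the 7 degradation genes had lower levels at 48 h in both sets of barcodes, some by less than their counting intervals, while Sec61g, Sec61b and Ssr4 were 2-fold higher. In the over 30% set, 10 of the 39 genes were 2-fold lower and 3 were 2-fold higher at 48 h. Among all 11067 genes with at least 10 UMIs the shares were 4.88% lower and 27.7% higher, and among the 5228 genes at 20 CPM or more they were 6.39% and 32.6%. The median ratio of the 39 was -0.27, against 0.50 over all genes tested. The under 2% set had 16 genes 2-fold lower and 4 higher, with shares of 14% and 17.8% among 12787 genes and of 23.1% and 29.1% among the 4530 at 20 CPM or more. The median there was -0.88, against 0.04 over all genes tested.

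The ratios are relative to the total, and the median of all genes was itself not at 0. For genes at 20 CPM or more it was 0.59 in the over 30% set and 0.17 in the under 2% set, and with TMM scaling (a trimmed mean over genes) it became 0.05 and -0.06. Set against that median, 35 of the 39 genes were below it in the over 30% set and 31 in the under 2% set, and with TMM scaling 34 and 31. The median of the list lay 0.86 below the median of those genes in the over 30% set and 1.05 below it in the under 2% set. Direct counting gave 25 genes lower at 48 h in both sets, 6 higher in both, and 8 that differed in direction between the sets.

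**Figure D1:**
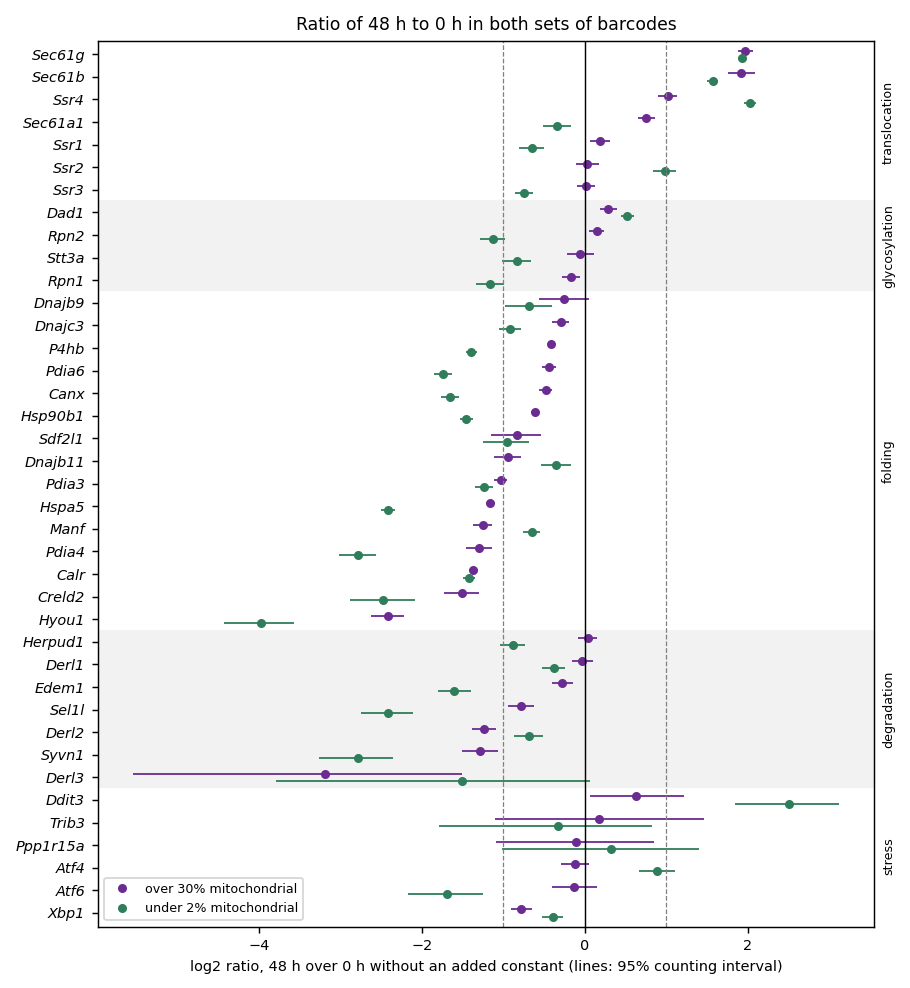
Log2 ratio of the 48 h to the 0 h level of each of the 39 genes, grouped by step, in barcodes with over 30% (purple) and under 2% (green) mitochondrial UMIs. Points are ratios without the added 1 CPM, lines are 95% counting intervals and dashed lines mark 2-fold; all 15 folding genes lie left of 0 in both sets.

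The 7 translocation genes encode the Sec61 channel and the translocon-associated protein complex (Ssr1 to Ssr4), which binds beside it. Their summed level was 1219.5 and 2359.7 CPM at 0 h and 48 h in the over 30% set, a log2 ratio of 0.95 (0.91 to 0.99), and 1548 and 3519.8 in the under 2% set, a log2 ratio of 1.19 (1.16 to 1.21). Sec61g, Sec61b and Ssr4 made up the 3 genes that were 2-fold higher, in both sets. Of all genes tested, 27.7% were 2-fold higher in the over 30% set and 17.8% in the under 2% set. All 3 are short transcripts. Most of the difference in the sum came from Sec61g and Sec61b, whose values are uncertain for the reason given below. Sec61a1, Ssr1 and Ssr3 were lower at 48 h in the under 2% set, so the sum does not describe every gene of the step.

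Sec61g, the gamma subunit of the channel (chr11:16500530-16508484), had a level of 213 (201 to 225) at 0 h and 836 (811 to 861) at 48 h in the over 30% set, and 447 (442 to 451) at 0 h and 1707 (1662 to 1753) at 48 h in the under 2% set. The ratios were 1.97 (1.88 to 2.07) and 1.93 (1.89 to 1.98), so both sets gave close to the same difference. Sec61b, the beta subunit (chr4:47474658-47483242), had 65.6 (59.2 to 72.5) at 0 h and 249 (236 to 263) at 48 h in the over 30% set, and 225 (222 to 229) at 0 h and 670 (642 to 699) at 48 h in the under 2% set. Its ratios were 1.91 (1.76 to 2.09) and 1.57 (1.51 to 1.64). Both genes have a near-identical copy elsewhere in the genome (Gm10177 for Sec61g and Gm10320 for Sec61b, at least 97% identical over 200 of the last 300 bases), so reads could be divided between the copies or dropped, and their values are uncertain.

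Ssr4, the delta subunit of the associated complex (chrX:73787028-73790830), had 159.9 (149.8 to 171) at 0 h and 324 (309 to 340.5) at 48 h in the over 30% set, and 139 (136 to 141) at 0 h and 568 (542 to 595) at 48 h in the under 2% set. Its ratio was 1.02 (0.90 to 1.14) in the first and 2.02 (1.96 to 2.10) in the second. Ssr4 was thus at the 2-fold limit in the over 30% set, and it was under that limit when the total was scaled to all UMIs, to UMIs without the 20 most abundant genes or by TMM.

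The remaining 4 were not 2-fold apart in either set. Sec61a1, which forms the channel pore, had 202 (190.2 to 214) at 0 h and 341 (325 to 357) at 48 h in the over 30% set but 117 (115 to 119.9) at 0 h and 93.1 (82.7 to 104) at 48 h in the under 2% set, ratios of 0.75 (0.65 to 0.87) and -0.33 (-0.51 to -0.17). The 2 sets thus gave opposite directions for the pore subunit. Ssr1 was also opposite, at 0.19 and -0.64. Ssr3 was the lowest of the step in the over 30% set, with 247 at 0 h and 249 at 48 h and a ratio of 0.01 (-0.10 to 0.12), and had -0.74 in the under 2% set. Ssr2 had 0.03 and 0.97. In the over 30% set all 7 ratios were above 0 under the non-mitochondrial total, while those of Ssr1, Ssr2 and Ssr3 were below 0 under the 3 other scalings.

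The 4 glycosylation genes encode subunits of the oligosaccharyltransferase, which moves the sugar chain onto the entering protein. Their summed level in the over 30% set was 967 and 1022 at 0 h and 48 h, a log2 ratio of 0.08 (0.03 to 0.13), and none was 2-fold apart. The sum in the under 2% set was 916 and 754, a log2 ratio of -0.28 (-0.34 to -0.22), and 2 of the 4 were 2-fold lower. In that set 14% of all genes tested and 23.1% of genes at 20 CPM or more were 2-fold lower, and 4 genes are too few to set against those shares.

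Dad1, a small subunit (chr14:54235479-54254104), had 238 (226 to 251) at 0 h and 291 (276 to 306) at 48 h in the over 30% set and 327 (323 to 331) at 0 h and 471 (447 to 496) at 48 h in the under 2% set. It was the highest of the step at 48 h over 0 h, with ratios of 0.29 (0.18 to 0.40) and 0.52 (0.45 to 0.60), and with TMM scaling its ratio in the over 30% set was below 0. The ribophorins are larger membrane subunits. Rpn1 (chr6:88084482-88105304) had 272 (258 to 285) at 0 h and 242 (228 to 255) at 48 h in the over 30% set and 191 (188 to 194) at 0 h and 85.5 (75.5 to 96.3) at 48 h in the under 2% set, and ratios of -0.17 (-0.28 to -0.06) and -1.15 (-1.34 to -0.99). Rpn2 (chr2:157279017-157326319) had 344 (329 to 359.7) at 0 h and 381 (364 to 398) at 48 h in the over 30% set and 245 (242 to 249) at 0 h and 112 (101 to 125) at 48 h in the under 2% set. Its ratios of 0.15 (0.06 to 0.24) and -1.12 (-1.28 to -0.98) were opposite in direction, and the first was below 0 when scaled to all UMIs, without the 20 most abundant genes or by TMM. Stt3a, the catalytic subunit, had ratios of -0.05 (-0.22 to 0.11) and -0.82 (-1.01 to -0.66). The ribophorins and Stt3a thus differed little between time points in the first set and were lower at 48 h in the second.

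All 15 folding genes had lower levels at 48 h than at 0 h in both sets. The interval lay below 0 for 14 of 15 in the over 30% set, the exception being Dnajb9, and for 15 of 15 in the under 2% set. Of the 15, 7 and 10 were 2-fold lower and none was 2-fold higher, with median ratios of -0.93 and -1.42. Of all genes tested, 4.88% and 14% were 2-fold lower. With TMM scaling 11 and 12 of the 15 were 2-fold lower. That scaling also moved the median of all genes at 20 CPM or more, from 0.59 to 0.05 and from 0.17 to -0.06. The shares of all genes 2-fold lower under TMM are not given here. The summed level was 10601 and 5898 CPM at 0 h and 48 h in the over 30% set, a log2 ratio of -0.85 (-0.87 to -0.83), and 8982 and 3024 in the under 2% set, a log2 ratio of -1.57 (-1.60 to -1.54). The count below 0 was 15 of 15 under every alternative setting of both comparisons.

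The Hsp70 system is taken first. Hspa5 (BiP, chr2:34771970-34777547), the ER Hsp70 and the gene whose ERSE heads the sequences above, had 1777 (1742 to 1811) at 0 h and 795 (771 to 820.4) at 48 h in the over 30% set, and 1696 (1687 to 1705) at 0 h and 319 (299 to 339) at 48 h in the under 2% set. The levels at 0 h were close between the sets, while that of the under 2% set was far lower at 48 h, and the ratios were -1.16 (-1.21 to -1.11) and -2.41 (-2.50 to -2.32). Hyou1 (chr9:44379490-44392369), which exchanges nucleotide on BiP, had the lowest ratio of all 39 in the under 2% set and, with 1 CPM added, in the over 30% set, where the scarce Derl3 was lower without it. It had 242 (229.8 to 255) at 0 h and 45.5 (39.8 to 51.7) at 48 h in the over 30% set and 236 (233 to 239.6) at 0 h and 15 (11 to 19.9) at 48 h in the under 2% set, from 18599 and 47 UMIs. Without an added constant the 0 h level was 5.33-fold (4.64 to 6.15) the 48 h level in the first set and 15.8-fold (11.8 to 21.5) in the second.

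The J-domain proteins that deliver substrates to BiP differed less. Dnajb9 (chr12:44205559-44210326) was the highest of the step in the over 30% set, with 37 (32.2 to 42.3) at 0 h and 31.2 (26.5 to 36.4) at 48 h and a ratio of -0.24 (-0.55 to 0.05), and its ratio in the under 2% set was -0.67 (-0.98 to -0.41). Dnajb11 and Dnajc3 had -0.93 and -0.29 in the over 30% set and -0.35 and -0.91 in the under 2% set. Sdf2l1, a partner of Dnajb11, had -0.81 and -0.94. None of these 4 was 2-fold lower in either set with the non-mitochondrial total. In the over 30% set the folding genes 2-fold lower went from 7 to 9 when scaled to all UMIs. Dnajb11 and Sdf2l1 were the nearest to the limit there. In the under 2% set the count went from 10 to 12 without the 20 most abundant genes, with Sdf2l1 and Dnajc3 the nearest. The median of all genes at 20 CPM or more also moved down in both cases, and the shares of all genes 2-fold lower are not given for them.

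Hsp90b1 (GRP94, chr10:86690209-86705509), the ER Hsp90, had 1409 (1379 to 1440) at 0 h and 922 (896 to 948) at 48 h in the over 30% set and 1198 (1190.4 to 1206) at 0 h and 438 (415 to 462) at 48 h in the under 2% set. Its ratios were -0.61 (-0.66 to -0.56) and -1.45 (-1.53 to -1.37), so it passed 2-fold in the under 2% set only.

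The lectin chaperones calreticulin and calnexin hold glycoproteins that still carry a trimmed sugar. Calr (chr8:84841850-84846934), the soluble one, had 2139.5 (2102 to 2178) at 0 h and 830 (805 to 855) at 48 h in the over 30% set and 1284 (1276 to 1292) at 0 h and 480.2 (456 to 505) at 48 h in the under 2% set. Its ratios of -1.37 (-1.42 to -1.32) and -1.42 (-1.49 to -1.34) were alike. Canx (chr11:50293961-50325673), the membrane-bound one, had 559 (539.5 to 578) at 0 h and 402 (384 to 419) at 48 h in the over 30% set and 639.9 (634 to 646) at 0 h and 204 (188 to 220.2) at 48 h in the under 2% set, with ratios of -0.47 (-0.56 to -0.40) and -1.65 (-1.77 to -1.54).

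The disulfide isomerases form and reshuffle disulfide bonds. Pdia4 (chr6:47796141-47813430) had 208 (196 to 219.9) at 0 h and 84.6 (76.8 to 93) at 48 h in the over 30% set and 351 (347 to 355) at 0 h and 51 (43.4 to 59.6) at 48 h in the under 2% set, ratios of -1.29 (-1.46 to -1.14) and -2.76 (-3.02 to -2.56), the lowest of the isomerases in each set. Pdia3 (chr2:121413775-121438687), which works with calreticulin and calnexin, had 689 (668 to 711) at 0 h and 338 (322 to 354) at 48 h in the over 30% set and 484 (479.5 to 489) at 0 h and 205 (189.8 to 222) at 48 h in the under 2% set. Its ratios were -1.03 (-1.11 to -0.95) and -1.23 (-1.35 to -1.13). Both were 2-fold lower in both sets.

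Pdia6 (chr12:17266545-17284770) and P4hb (chr11:120560298-120573253) passed 2-fold in the under 2% set only. Pdia6 had 538 (519 to 557) at 0 h and 397 (379 to 414) at 48 h in the over 30% set and 686 (681 to 692) at 0 h and 205 (189.8 to 222) at 48 h in the under 2% set, with ratios of -0.44 (-0.52 to -0.36) and -1.74 (-1.86 to -1.63). P4hb, which is also a subunit of collagen prolyl hydroxylase, had 1991 (1955 to 2028) at 0 h and 1497 (1464 to 1531) at 48 h in the over 30% set and 1403 (1395 to 1411) at 0 h and 535 (510.1 to 562) at 48 h in the under 2% set. Its ratios were -0.41 (-0.45 to -0.37) and -1.39 (-1.46 to -1.32). In the over 30% set P4hb was among the least different folding genes.

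Creld2 and Manf encode small ER proteins known to be induced when folding fails. Creld2 (chr15:88819646-88826683) had 127 (118 to 137) at 0 h and 44.7 (39.1 to 50.9) at 48 h in the over 30% set and 95.5 (93.4 to 97.7) at 0 h and 17.2 (12.9 to 22.5) at 48 h in the under 2% set, with ratios of -1.49 (-1.73 to -1.29) and -2.41 (-2.89 to -2.09). Manf (chr9:106838312-106891979) had 377 (362 to 393) at 0 h and 158 (148 to 169.6) at 48 h in the over 30% set and 401 (396 to 405) at 0 h and 255 (238 to 273) at 48 h in the under 2% set. Its ratios were -1.25 (-1.37 to -1.14) and -0.65 (-0.75 to -0.55), so Manf, unlike most folding genes, lay further below 0 in the over 30% set.

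**Figure D2:**
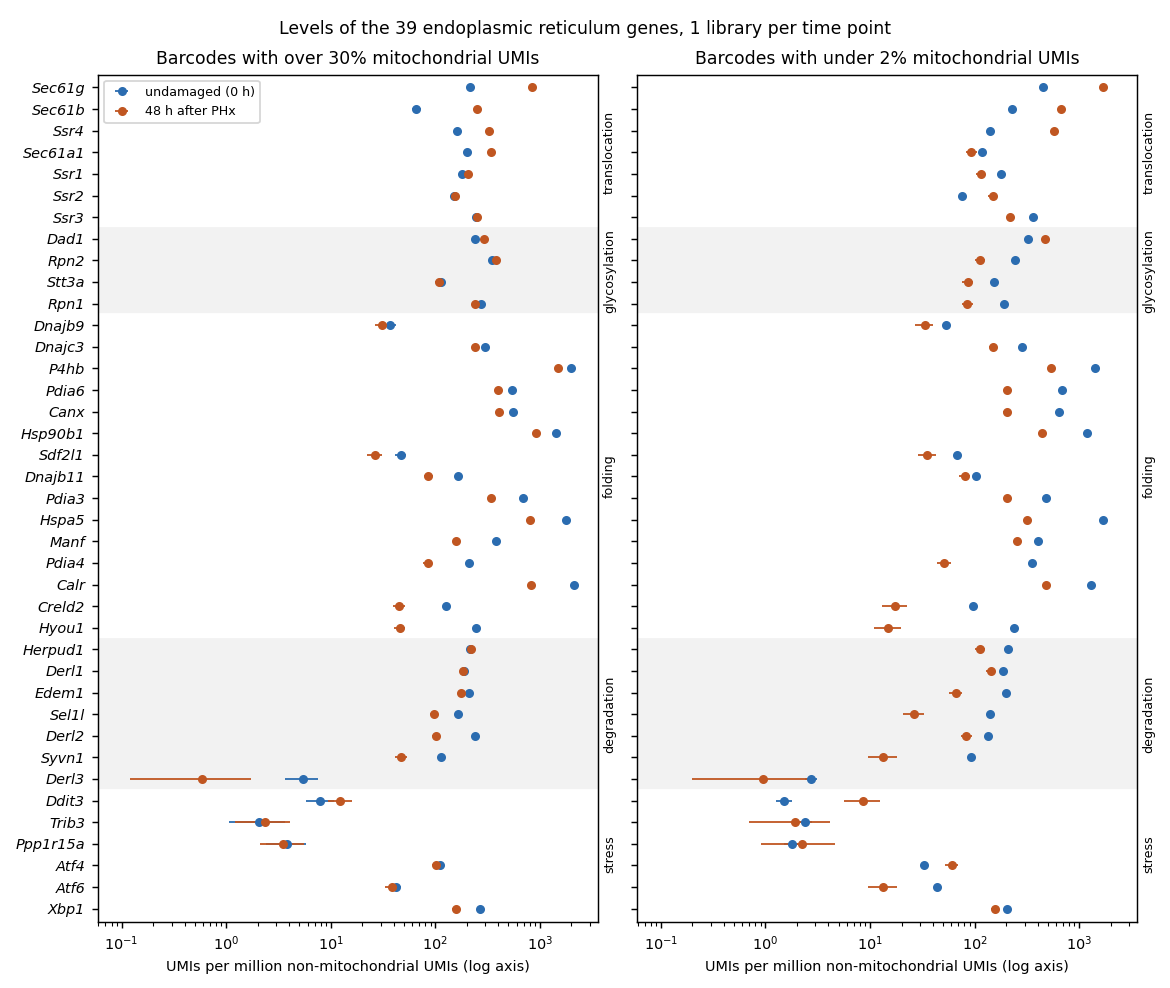
Level of each gene in CPM (log axis) at 0 h (blue) and 48 h (orange), in barcodes with over 30% (left) and under 2% (right) mitochondrial UMIs, with 95% Poisson intervals. In the folding rows the orange points lie left of the blue ones in both panels, while Sec61g, Sec61b and Ssr4 show the opposite order.

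The 7 degradation genes serve ER-associated degradation, in which misfolded proteins are recognised, moved back across the membrane and ubiquitinated. Their summed level was 1137 and 824 CPM at 0 h and 48 h in the over 30% set, a log2 ratio of -0.47 (-0.52 to -0.41), and 963 and 445 in the under 2% set, a log2 ratio of -1.11 (-1.19 to -1.04). In the over 30% set 6 of 7 were lower at 48 h, 3 of them 2-fold (Derl2, Derl3 and Syvn1), and in the under 2% set 7 of 7 were lower, 3 of them 2-fold (Edem1, Sel1l and Syvn1). Of all genes tested, 4.88% were 2-fold lower in the over 30% set and 14% in the under 2% set. Without the 20 most abundant genes in the total, and with TMM scaling, 5 of the 7 were 2-fold lower in the under 2% set. The shares of all genes under those scalings are not given here. None was 2-fold higher.

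Syvn1 (HRD1, chr19:6046576-6053712), the ubiquitin ligase at the centre of the pathway, had 114 (106 to 123) at 0 h and 47 (41.3 to 53.4) at 48 h in the over 30% set and 92.5 (90.4 to 94.6) at 0 h and 13.4 (9.65 to 18.1) at 48 h in the under 2% set. Its ratios were -1.26 (-1.50 to -1.07) and -2.70 (-3.26 to -2.35). Sel1l (chr12:91806043-91849157), its membrane partner, had 165 (155 to 176) at 0 h and 96.6 (88.3 to 106) at 48 h in the over 30% set and 139.8 (137 to 142) at 0 h and 26.1 (20.8 to 32.5) at 48 h in the under 2% set, with ratios of -0.77 (-0.94 to -0.62) and -2.37 (-2.75 to -2.11). The ligase and its partner were both far lower at 48 h in the under 2% set. Edem1 (chr6:108828641-108859356), which acts on the mannose residues that mark proteins for disposal, had 212 (200.1 to 224) at 0 h and 175 (164 to 187) at 48 h in the over 30% set and 199.9 (197 to 203) at 0 h and 66 (57.3 to 75.6) at 48 h in the under 2% set. Its ratios were -0.27 (-0.40 to -0.15) and -1.58 (-1.80 to -1.40).

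The derlins are membrane proteins of the exit route. Derl2 (chr11:71007164-71019841) had 239 (227 to 252) at 0 h and 101 (92.8 to 110.4) at 48 h in the over 30% set and 134 (132 to 137) at 0 h and 83.5 (73.7 to 94.3) at 48 h in the under 2% set, with ratios of -1.23 (-1.39 to -1.09) and -0.68 (-0.87 to -0.51). Derl1 had -0.03 and -0.38. Derl3 (chr10:75893413-75895941) was scarce, with 31 and 3 UMIs at 0 h and 48 h in the over 30% set and 214 and 3 in the under 2% set. Its level was 5.36 (3.65 to 7.61) at 0 h and 0.588 (0.121 to 1.72) at 48 h in the over 30% set, and the 0 h level was 9.13-fold (2.85 to 46.7) the 48 h level. The same ratio was 2.84-fold (0.959 to 13.9) in the under 2% set, so no difference could be told there at this depth. Herpud1 (chr8:94386438-94395377), which recruits the ligase complex, was the highest of the step in the over 30% set, with 214 (202 to 226) at 0 h and 219.6 (207 to 233) at 48 h and a ratio of 0.04 (-0.08 to 0.16), and had -0.88 (-1.04 to -0.73) in the under 2% set.

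The 6 stress genes encode the ATF6 sensor, the transcription factors Xbp1 and Atf4, and Ddit3 (CHOP), Trib3 and Ppp1r15a (GADD34), which lie downstream of ATF4. Counts at the 3′ end do not show whether Xbp1 mRNA was spliced or ATF6 was cut. None of the 6 was 2-fold apart in the over 30% set, where Xbp1 was 2-fold lower under the 3 other scalings. In the under 2% set 1 was higher and 1 lower (Ddit3 and Atf6), against 17.8% and 14% of all genes tested. With 10 CPM added none was higher. The summed level was 433 and 314 CPM at 0 h and 48 h in the over 30% set, a log2 ratio of -0.46 (-0.55 to -0.37). In the under 2% set it was 287 and 243, a log2 ratio of -0.24 (-0.34 to -0.13). Xbp1 made up most of the difference in the over 30% set, where the median ratio of the 6 was -0.10.

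Xbp1 (chr11:5520659-5525893) was the lowest of the step in the over 30% set, with 267 (254 to 281) at 0 h and 156 (145 to 167) at 48 h, and had 205 (202 to 208) at 0 h and 156 (143 to 171) at 48 h in the under 2% set. The ratios were -0.77 (-0.90 to -0.65) and -0.39 (-0.52 to -0.26), lower at 48 h in both. Atf6 (chr1:170704674-170867771) had 41.7 (36.6 to 47.3) at 0 h and 38.2 (33 to 44) at 48 h in the over 30% set and 43.2 (41.8 to 44.7) at 0 h and 13.4 (9.65 to 18.1) at 48 h in the under 2% set, with ratios of -0.12 (-0.41 to 0.15) and -1.62 (-2.17 to -1.25). Its 2-fold difference was in the under 2% set only, and the other interval included 0.

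Ddit3 (chr10:127290774-127296288) was the highest of the step in both sets, from 46 and 63 UMIs at 0 h and 48 h in the over 30% set and 119 and 27 in the under 2% set. Its level was 7.96 (5.83 to 10.6) at 0 h and 12.3 (9.49 to 15.8) at 48 h in the first and 1.51 (1.25 to 1.81) at 0 h and 8.61 (5.67 to 12.5) at 48 h in the second, 1.55 and 5.7 times the 0 h level without an added constant. Atf4, shown in full because its sets differ, had 111 (102 to 119.5) at 0 h and 102 (93.3 to 111) at 48 h in the over 30% set and 32.7 (31.4 to 33.9) at 0 h and 60.6 (52.3 to 69.8) at 48 h in the under 2% set. Its ratios were -0.12 (-0.29 to 0.05) and 0.87 (0.67 to 1.10). Trib3 and Ppp1r15a had at most 22 UMIs in a library of the over 30% set, and their intervals included 0 in both sets.

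Genes with an ERSE were then set beside those without. All 9 holders were lower at 48 h in the over 30% set, 5 of them 2-fold, with a median ratio of -1.16, while of the 24 with a promoter and no ERSE 14 were lower, 3 of them 2-fold, with a median of -0.10. All 9 were lower in the under 2% set as well, 7 of them 2-fold and with a median of -1.65, and 17 of the 24 were lower, 7 of them 2-fold, with a median of -0.67. Within folding alone the order was not the same in both sets: the 7 holders had medians of -0.61 and -1.65, and the 6 without one had -0.87 and -1.09. Of the 28 genes outside the list with an ERSE, 4 reached 20 CPM in the over 30% set. Of these, Acacb and Pan2 were lower at 48 h and Acnat2 and Hnrnpa3 higher. The holders outside the list were thus divided in direction, and they are too few to compare with those in it.

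The 2 sets were next compared within each library. At 0 h, 2 of the 39 genes were 2-fold higher in the over 30% set (Atf4 and Ddit3) and 2 were 2-fold lower (Sec61b and Sec61g), against 9.98% and 5.62% of 12802 genes. The median ratio of over 30% to under 2% was 0.08. At 48 h, 12 were 2-fold higher and 2 lower (again Sec61b and Sec61g), against 31.9% and 5.49% of 10816 genes, with a median of 0.71. The 12 were Sec61a1, Rpn1, Rpn2, Hspa5, Hsp90b1, Hyou1, P4hb, Creld2, Sel1l, Syvn1, Edem1 and Atf6. Their share, 12 of 39, is near the background of 31.9%, so it is not particular to these genes.

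Folding genes had close to the same summed level in both sets at 0 h, 8982 and 10601 CPM in the under 2% and over 30% set, but 3024 and 5898 at 48 h. In the under 2% set 28 of the 39 genes had a lower ratio of 48 h to 0 h. The median ratio of all genes at 20 CPM or more was also lower there, 0.17 against 0.59. The share of all genes with a lower ratio was not counted, so the 28 cannot be called particular to these genes. The directions between sets hold for the non-mitochondrial total. Scaled to all UMIs, the median ratios of over 30% to under 2% of the 39 genes were -0.67 at 0 h and -0.39 at 48 h. The nuclear RNAs Malat1 and Neat1 moved with the sets: their summed level was 5964 CPM in the over 30% set and 2306 in the under 2% set at 0 h, and 3423 and 2248 at 48 h. Early response genes known to be induced during cell isolation (8 genes, Fos and Egr1 among them) summed to 179 and 53.8 at 0 h and to 427 and 114 at 48 h. Their part in the ratios was not tested.

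The time difference was also followed through 5 bins of mitochondrial share. In every bin 24 of the genes were lower at 48 h and 6 were higher (Sec61b, Sec61g, Ssr2, Ssr4, Dad1 and Ddit3), while 9 changed direction between bins. The 24 held all 15 folding genes and 6 of the 7 degradation genes. Such counts were not made over all genes, so whether they are particular to this list was not tested. The summed folding level was 8982 at 0 h and 3024 at 48 h in the bin under 2%, 8285 at 0 h and 4096 at 48 h in the bin from 2% to 10%, and 9426 at 0 h and 4808 at 48 h in that from 10% to 30%. It was 10482 at 0 h and 5797 at 48 h from 30% to 50% and 10967 at 0 h and 5985 at 48 h over 50%. The gap between time points was present in each bin and was widest, at a ratio of -1.57, in the lowest.

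Single genes did not all follow this course. For Hyou1 the ratio went from -3.89 in the lowest bin through -3.39, -3.37 and -2.60 to -2.28 in the highest. For Manf it went the other way, from -0.65 through -0.70, -0.99 and -1.07 to -1.40. Sec61a1 had ratios of -0.33, 0.10, 0.39, 0.58 and 0.99 from the lowest to the highest bin. Atf4 had 0.87, 0.79, 0.10, -0.17 and -0.22, the opposite course. In the bin from 2% to 10%, 35.9% of the 48 h barcodes carried markers of another cell type (13.0% at 0 h), so its values are less sure to be those of hepatocytes.

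**Figure D3:**
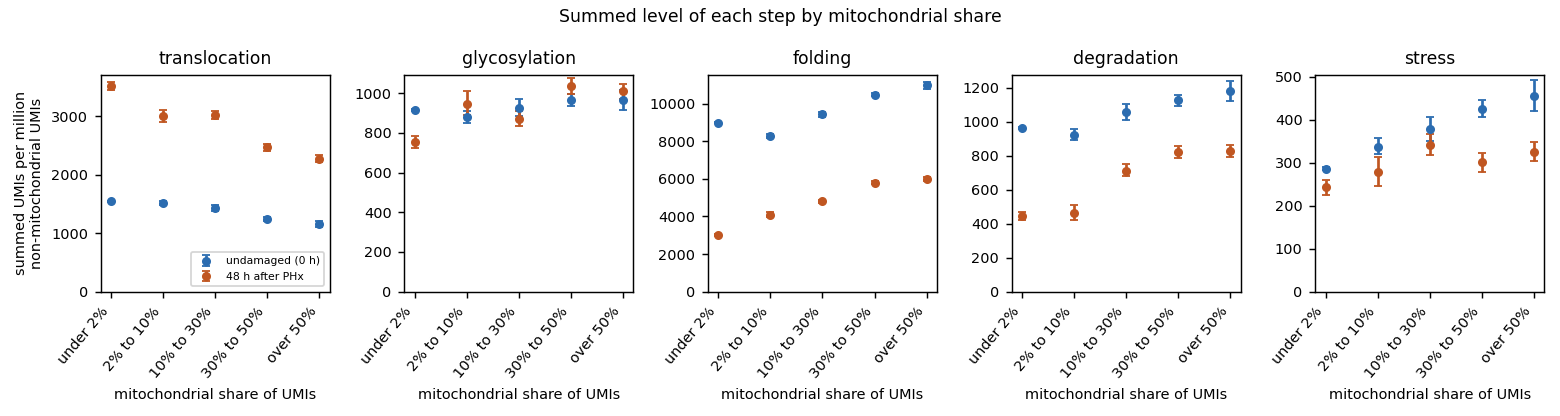
Summed level of the genes of each step in CPM by bin of mitochondrial share, at 0 h (blue) and 48 h (orange), with 95% Poisson intervals and axes from 0. The folding and degradation points at 48 h lie below those at 0 h in all 5 bins and the translocation points lie above them. Most of the translocation difference comes from Sec61g and Sec61b.

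Short transcripts among the listed genes were higher at 48 h, and transcript length was therefore examined over all genes. Length was the median over the coding transcripts of GENCODE M21. Among genes at 20 CPM or more, the median ratio was lower in longer classes in the over 30% set, going from 1.27 under 1000 bases to 0.73, 0.48 and 0.42 over 3000 bases. That of the under 2% set went from 1.41 to 0.64, -0.26 and -0.71. Spearman's rho of ratio with length was -0.22 over 5182 genes and -0.51 over 4476, and -0.20 and -0.58 over the 39, given as a description across genes. Sec61b, Sec61g, Ssr2, Ssr4 and Ddit3 are the 5 listed genes under 1000 bases. Their median ratios were 1.02 and 1.93, against 1.27 and 1.41 for all genes of that length class.

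Against the median of their own length class, the folding genes were below in 15 of 15 cases in both sets, by a median of 1.54 and 1.29 on the log2 scale. Degradation genes were below in 7 of 7 and 6 of 7, glycosylation genes in 4 of 4 and 3 of 4, translocation genes in 4 of 7 and 3 of 7, and stress genes in 6 of 6 and 2 of 6. The ratios of the short translocation genes Sec61b, Sec61g, Ssr2 and Ssr4 were spread over their length class. They ran from the 14.2 percentile (Ssr2) to the 78.8 percentile (Sec61g) in the over 30% set. In the under 2% set they ran from 30.5 (Ssr2) to 78.6 (Ssr4). The part of length in these ratios was not tested. All folding genes had ratios below the median of transcripts of like length. Between the sets at 48 h the ratio also moved with length, with a rho of 0.67 over the 39 and 0.63 over 5176 genes. For the folding genes that ratio lay a median of 0.15 above the median of their length class.

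**Figure D4:**
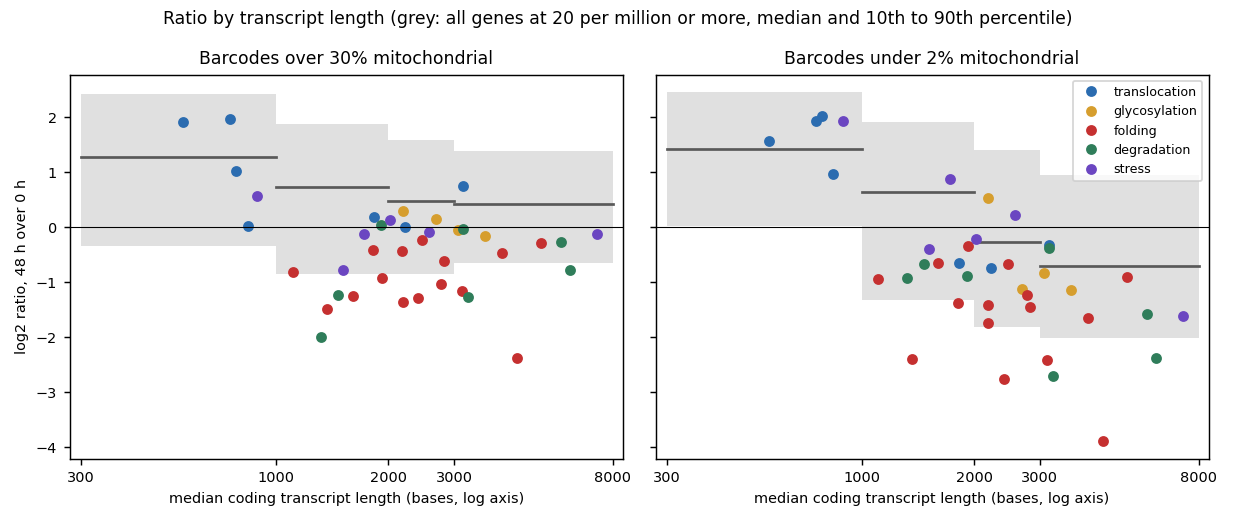
Log2 ratio of 48 h to 0 h against median coding transcript length (bases, log axis) for the 39 genes coloured by step, in barcodes with over 30% (left) and under 2% (right) mitochondrial UMIs. Grey bands and lines give the 10th to 90th percentile and the median of all genes at 20 CPM or more in 4 length classes; folding genes lie below the median line of their class in both panels.

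Other genes of the same pathway, 71 in number, were described in the same way. In the over 30% set 12 were 2-fold higher and 1 lower, with a median ratio of 0.05, and in the under 2% set 13 were higher and 20 lower, with a median of -0.36. The shares of all genes with at least 10 UMIs were 27.7% higher and 4.88% lower in the first set and 17.8% and 14% in the second, so 12 of 71 is under the background and 13 of 71 is near it. The 20 lower genes are a larger share than that background and are near the 23.1% of genes at 20 CPM or more. Both medians lie above those of the 39 and below those of all genes.

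Of 17 further translocation genes (signal recognition particle, its receptor and signal peptidase), 5 were 2-fold higher in each set and none was 2-fold lower. The 5 of 17 are near the 27.7% of all genes in the over 30% set. In the under 2% set they are above the 17.8% of all genes and near the 29.1% of genes at 20 CPM or more. Srp9 was the highest in the over 30% set (1.65) and Srp19 in the under 2% set (1.95), both parts of the particle, and Sec63, an aid of the channel, was the lowest in both (-0.49 and -0.99). Srp54a had no UMI in any set. Of 12 further glycosylation genes, 2 were higher in the over 30% set, and 3 were higher and 6 lower in the under 2% set. The 6 of 12 are above the 14% of all genes and the 23.1% of genes at 20 CPM or more that were lower there. Ost4, the smallest subunit of the transferase, was the highest, with levels of 15.1 and 139 at 0 h and 48 h in the first and 53.3 and 474 in the second (ratios of 3.12 and 3.13). Magt1 was the lowest, at -0.87 and -2.07.

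Of 17 further folding genes, 1 was higher and 1 lower in the over 30% set, and 3 were higher and 7 lower in the under 2% set. The 1 lower of 17 is near the 4.88% of all genes. The 7 of 17 are above the 14% of all genes and the 23.1% of genes at 20 CPM or more. Fkbp11, a prolyl isomerase, was the highest at 1.84 and 2.82. The lowest were Cnpy3 (-1.19) in the over 30% set and Ero1lb (-2.11), an oxidase that recharges the isomerases, in the under 2% set. Their median ratios, -0.33 and -0.71, lay nearer 0 than the -0.93 and -1.42 of the 15.

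Of 12 further degradation genes, 1 was higher in the over 30% set, Vcp (1.74), the ATPase that pulls proteins out of the membrane, which had -0.36 in the under 2% set. Another 3 were lower in the under 2% set, with Edem3 the lowest at -2.73 and Ube2j1 the highest at 0.80. The 3 of 12 are above the 14% of all genes and near the 23.1% of genes at 20 CPM or more. Os9 was the lowest in the over 30% set (-0.57). Of 13 further stress genes, 3 were higher in the over 30% set, and 2 were higher and 4 lower in the under 2% set. Of all genes, 27.7% were higher in the first set, and 17.8% were higher and 14% lower in the second. Atf3, a target of ATF4, was the highest in both, with levels of 0.346 and 4.31 and 0.127 and 4.78 from 2 to 22 UMIs a library. Chac1 was the lowest in the over 30% set, on 8 and 2 UMIs, and Mbtps1, the protease that cuts ATF6, was the lowest in the under 2% set (-1.66).

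The cargo of the pathway was set beside it. The 16 genes of abundant secreted proteins, albumin and apolipoproteins among them, summed to 190599 and 171668 CPM at 0 h and 48 h in the over 30% set and to 137126 and 102088 in the under 2% set. Their median ratios were -0.48 and -1.11, with 3 and 9 of 16 2-fold lower and 1 2-fold higher (Hpx) in each. Of all genes tested, 4.88% and 14% were 2-fold lower, and of genes at 20 CPM or more 6.39% and 23.1%. The cargo genes were thus also 2-fold lower in larger shares than all genes. Their summed ratios, -0.15 (-0.15 to -0.15) and -0.43 (-0.43 to -0.42), were smaller in size than those of the folding genes. These sums rest heavily on a few genes: Alb alone had 44962.5 and 51662.1 CPM at 0 h and 48 h in the over 30% set. In the under 2% set it had 47843.7 and 22124.1. By median the lists were nearer, as the folding genes had -0.93 and -1.42.

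Markers of other liver cells were scarce. The lists of Kupffer, endothelial and cholangiocyte markers (10 genes each) summed to 25.9 to 38.6, 29.0 to 54.3 and 21.0 to 57.4 CPM over the 4 combinations of set and time point. The 10 stromal markers summed to 19.6 to 27.0, but to 146 in the under 2% set at 48 h, where Dcn alone had 106. Erythroid markers (6 genes) summed to 246 in the under 2% set at 0 h and to 27.6 to 54.5 elsewhere. The part of both in the ratios was not tested. T and NK markers (9 genes) reached at most 6.83, neutrophil markers (6 genes) 5.40 and plasma and B cell markers (7 genes) 1.73, and at 48 h in the under 2% set all 3 lists were at 0. Barcodes with markers of another type were 3 of 3870 and 0 of 765 in the over 30% set and 48 of 52587 and 3 of 522 in the under 2% set. Without them, the counts of folding genes below 0 were again 15 of 15 in both sets.

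The spread over barcodes was taken at a fixed depth of 500 non-mitochondrial UMIs, which left out 75 barcodes of the over 30% set at 0 h and none elsewhere. At that depth a barcode of the over 30% set held a median of 7 UMIs of the 39 genes at 0 h (5th to 95th percentile 3 to 12) and of 5 at 48 h (2 to 10). One of the under 2% set held 6 (3 to 11) and 4 (1 to 8). The ranges overlapped widely between time points. The variance over the mean, which is 1 for pure counting, was 1.05 and 1.28 in the over 30% set at 0 h and 48 h, and 1.02 and 1.07 in the under 2% set. For the folding genes alone it was 1.05, 1.20, 1.02 and 1.14 in the same order, highest at 48 h in the over 30% set. Thinning to few UMIs holds this ratio near 1 whatever the spread between cells, and at 1000 UMIs the folding values were 1.12, 1.34, 1.04 and 1.12, so the size of that spread cannot be read from it. Spearman's rho between the summed counts of 2 steps over barcodes lay between -0.09 and 0.08 in all 40 pairs of steps, sets and libraries, which is too weak to be read at this depth.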

How the data were processed

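The authors processed 3′ reads with Cell Ranger (version not given in the sources used here; build mm10 in the submitters' processing notes) and deposited a matrix of UMI counts for each library, as whole numbers without normalization. Every deposited barcode was used, so the filters on mitochondrial share and doublets named in the study's methods were not applied. Barcodes were divided by the share of UMIs from 13 mitochondrial genes (over 30%, under 2%, and 5 bins), and the counts of each set were summed per library, since cells are not replicates. With 1 library per group no test was run, and depths differed between libraries. Levels, ratios and intervals were computed in Python 3.11.15 with scipy 1.17.1, and TMM factors in edgeR 4.0.16. Near-identical transcripts were sought with BLAST 2.17.0, and positions and lengths came from GENCODE M21 (GRCm38). The members, steps and lists were chosen with earlier results of these data known.

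Full values were given for genes past 2-fold in either comparison over time with at least 20 UMIs, and for the highest and lowest of each step by the ratio in the over 30% set. Sec61a1, Ssr1, Stt3a and Atf4 were added after their values were seen. Background shares used genes with at least 10 UMIs over both sides. Alternatives were 3 other scalings, 10 or 0.1 CPM added, the mean of single barcodes, other mitochondrial limits (over 50% or 20%, under 1% or 5%), other filters (50 UMIs or 1), removal of barcodes with markers of other types or of the deepest 5%, and 1000 UMIs per barcode for the spread. Chosen after seeing the data were the length classes, the ERSE comparison, the filter at 20 CPM and the removal of the 148 shared barcodes. Protein sequences were not analysed here.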

Additional observations from a re-analysis of the deposited data

Results flagged for a closer look

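For 3 genes the intervals of the ratio of 48 h to 0 h lay on opposite sides of 0 in the 2 sets of barcodes. Sec61a1 had 0.75 in the over 30% set and -0.33 in the under 2% set. Ssr1 had 0.19 and -0.64, and Rpn2 had 0.15 and -1.12. The difference between the sets was not tested, as each set is 1 library per time point. Under the scaling to all UMIs, without the 20 most abundant genes and with TMM, the ratios of Ssr1 and Rpn2 in the over 30% set were below 0, so for these 2 genes the opposite direction rests on the choice of total, while that of Sec61a1 was above 0 in the over 30% set and below 0 in the under 2% set under each of them.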

How the results depend on the processing

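The medians over time moved with the scaling. In the over 30% set the median ratio of the 39 genes was -0.53 when scaled to all UMIs, -0.53 without the 20 most abundant genes in the total and -0.82 with TMM, where 16 genes were 2-fold lower. The shares of all genes past 2-fold under the other scalings are not given here. In the under 2% set it was -1.11 without the 20 most abundant genes and -1.07 with TMM. The median of genes at 20 CPM or more moved as well. In the over 30% set the list lay 0.82 to 0.90 below it (0.72 with 10 CPM added). Between the sets the scaling decided the direction. At 0 h, scaling to all UMIs gave a median of -0.67 with 1 gene 2-fold higher and 10 lower, and TMM gave -0.0082. The count 2-fold higher at 0 h was 1 with 10 and 4 with 0.1 CPM added, and the count lower was 1 without the 20 most abundant genes and with the limit at over 20%. At 48 h, scaling to all UMIs gave -0.39 with 0 higher and 10 lower, and TMM gave 0.13 with 4 higher and 5 lower. The count lower at 48 h was 1 without the 20 most abundant genes, with the mean of single barcodes, and with the limits at over 20% and under 5%. Scaled to all UMIs, 11 in place of 30 genes were above 0 at 48 h, and Hsp90b1, at -0.056, is one that changed side. The median of all genes at 20 CPM or more moved as well, from 0.44 to -0.66 at 48 h and from -0.17 to -1.01 at 0 h. The list lay 0.28 and 0.27 above it at 48 h and 0.25 and 0.34 at 0 h. The cause of these moves was not tested. For the counts that moved with the added constant, the mean of single barcodes or the mitochondrial limit the cause was not tested either. For single genes, 1501 values under an alternative kept direction and size, 394 moved by more than their counting interval and 1 was counted as reversed. No paired analysis was possible because each group has 1 library, and for the same reason no replicate could be left out. Depth limits Derl3, Trib3, Ppp1r15a and Ddit3, each with under 70 UMIs in a library of the over 30% set.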
